A study of Mus musculus with 54 samples.

Results

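The 8 genes described here are parts of the Notch pathway in mouse blood-forming cells: the receptors Notch1 and Notch2, the ligands Dll1 and Jag1, the DNA-binding factor Rbpj, and the targets Hes1, Hey1 and Nrarp. They were taken by name from a table of 23154 genes counted in 2879 single cells of 54 libraries. Dll1 and Hey1 were chosen by their counts after transplantation (high on day 1 and on day 5), so their values there are a description with no test, and the other 6 genes were tested. Each cell was amplified by a modified Smart-seq2 protocol that keeps the end of each mRNA, and 2301 cells carried the authors' annotation.

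Of the annotated cells, 1270 came from steady state marrow or spleen and had been sorted by surface markers into 28 phenotypes, and 1031 were cells collected after transplantation, a sort that the annotation calls GFPP. All mice were labelled C57BL/6 and aged 8 to 10 weeks, and no label tells which animal gave a library or separates the host from the donor. The steady state stem cell group, iHSC, held 305 cells of 12 libraries (LT_HSC, ESLAM, ESLAMSK, Fraction I and Fraction III). The multipotent progenitor group, iMPP, held 508 cells of 17 libraries (ST_HSC, LMPP, MPP1 to MPP4, Fraction II, HPC2 and HPC3). Committed progenitors (CMP, GMP, MEP and CLP) gave 95 cells of 4 libraries. The mature groups were T cells (88 cells of 2 libraries), B cells (40 of 2), NK cells (39 of 2), myeloid cells (106 of 3), erythroid cells (70 of 3) and megakaryocytes (19 of 2). The transplanted cells were collected on day 1 (61 cells of 3 libraries), day 3 (125 of 3), day 5 (336 of 7) or day 7 (389 of 10), and another 120 cells of 3 libraries mixed 2 days. Each collection day was set against iHSC, and so were iMPP, committed, T, B, myeloid and erythroid cells, while NK cells and megakaryocytes entered no comparison with iHSC.

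Notch receptors are cut inside the membrane when a ligand of the Delta or Jagged kind on a neighbouring cell binds them. The freed intracellular part enters the nucleus, joins RBPJ on DNA and turns on targets such as the repressors Hes1 and Hey1 and the feedback inhibitor Nrarp. In blood formation the pathway is best known for T cell commitment from Notch1 and for marginal zone B cells from Notch2 and Dll1, and for the emergence of stem cells in the embryo.

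The feedback target Nrarp and the nuclear factor Rbpj had an entry in the promoter table, and their sequences are shown because a target promoter is read by RBPJ through a short core motif. Each stretch runs 5′ to 3′ on the plus strand from 250 bases before to 50 bases after an annotated start, was taken from RefSeq on GRCm38.p6, and has every TGGGAA (or TTCCCA, its reverse complement) in capitals. The first covers chr5:53590096-53590395 and the second chr2:25180508-25180807.
Rbpj: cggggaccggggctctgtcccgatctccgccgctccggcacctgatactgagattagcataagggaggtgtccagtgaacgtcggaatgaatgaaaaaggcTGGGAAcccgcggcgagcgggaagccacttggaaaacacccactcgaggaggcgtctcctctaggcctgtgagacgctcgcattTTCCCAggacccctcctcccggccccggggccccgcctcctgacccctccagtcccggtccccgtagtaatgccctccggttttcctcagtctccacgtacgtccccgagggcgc
Nrarp: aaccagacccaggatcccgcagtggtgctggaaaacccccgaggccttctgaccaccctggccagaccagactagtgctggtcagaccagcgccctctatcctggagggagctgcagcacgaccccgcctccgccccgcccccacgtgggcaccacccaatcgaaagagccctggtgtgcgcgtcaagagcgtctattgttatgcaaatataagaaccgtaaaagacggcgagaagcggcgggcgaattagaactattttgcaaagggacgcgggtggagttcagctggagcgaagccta
The Rbpj promoter held the core once on each strand, 149 bases before the start on the same strand and 65 bases before it on the opposite strand, and the Nrarp promoter held none. In all, 6 of the 8 genes matched the table with 8 promoters, of which 2 held the motif, both of them at overlapping Rbpj starts. Over all 32851 promoters of the same length 25.56% held TGGGAA on either strand, and 1.808% held it on both. These letters are a description of the sequence and not a measurement of binding, and the search says nothing about the rest of each locus.

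A library sum is the total count of a gene over the cells of 1 group in 1 library, and its level is given per 1000000 counts of that sum (CPM). The libraries are the replicates, and since their animals are not given, the p-values measure the spread between libraries, which may be technical. Annotated cells held 20013 to 1943315 counts (median 203971), and the median per cell was 109047, 116651, 257195 and 273612 for days 1, 3, 5 and 7, beside 121266 in iHSC and 339200 in iMPP. Detection was therefore also given at equal depth, as the share of cells expected to keep at least 1 count if each cell were thinned to 20000 counts. In sums of this kind, fewer cells with the RNA and less RNA per cell cannot be told apart from the level alone. No label names a preparation batch, and all comparisons with iHSC share the same 12 control libraries.

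Notch1 (chr2:26457903-26516663, minus strand, GRCm38), the receptor needed for T cell fate, was read in every annotated library and in every steady state phenotype. Its level over all cells of a phenotype was highest in common lymphoid progenitors (CLP, 174 CPM), megakaryocytes (152 CPM), granulocytes (96.9 CPM), CD8 T cells (94.7 CPM) and LT_HSC (87.5 CPM). Of the megakaryocytes (19 cells), 1 cell held 34.3% of the Notch1 counts. A list of 7 neutrophil marker genes summed to 38096 and 178814 CPM in their 2 libraries. It summed to 51328 to 81570 CPM in myeloid and 66617 to 179333 CPM in erythroid libraries. The part of such signals in the levels of these groups was not tested. At the other end stood MEP (2.44 CPM), B cells (2.76 CPM) and MPP2 (7.42 CPM). The equal-depth detection gave a like order, with 49.8% of CLP, 47.5% of granulocytes and 42.6% of MPP4, against 8.24% of B cells, 6.06% of MPP2 and 4.93% of MEP. By library the 2 B cell sums were at 1.82 and 3.59 CPM and the 2 T cell sums at 37.8 and 82.0 CPM. The fitted log2 difference of B from T cells was -4.46 (SE 1.63), yet it did not pass the threshold (edgeR adjusted p = 0.188).

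Among the multipotent progenitors, the receptors had opposite orders in MPP2 and MPP4. Notch1 was at 79 CPM in MPP4 and 7.42 CPM in MPP2, whereas Notch2 was at 22.1 CPM in MPP4 and 42.7 CPM in MPP2. As whole groups, iMPP (44.7 ± 56.5 CPM, SD, n = 17) and iHSC (47.9 ± 46.0, n = 12) overlapped over most of their range, and the fitted log2 difference was -0.03 (SE 0.523).

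After transplantation, Notch1 was highest in day 1 cells and lowest in day 7 cells. The 3 day 1 libraries stood at 30.7 CPM (L84, 39 cells), 169 CPM (L83, 9 cells) and 178 CPM (L87, 13 cells). In L83 and L87, 1 cell each held 36.5% and 36.8% of the Notch1 counts. The 3 day 3 libraries stood at 16.8, 17.6 and 34.5 CPM. Day 5 libraries ran from 15.9 to 92.7 CPM (mean 40.8 ± 28.1, n = 7) and day 7 libraries from 0.379 to 50.8 CPM with a median of 16.9. The 2 higher day 1 libraries lay above every iHSC library (2.74 to 143 CPM, median 35.6), while the other days overlapped the iHSC range. The fitted log2 difference from iHSC was 1.31 on day 1 (edgeR adjusted p = 0.384), and it was -1.30 (SE 0.548) on day 7 (edgeR adjusted p = 0.0843). The day 7 value is the receptor's nearest to the threshold, and without library L59, which stood at 50.8 CPM when the next was at 22.1 CPM, it was -1.78 with an edgeR adjusted p of 0.0202. It also passed without iHSC library L1 (-1.48, edgeR adjusted p = 0.0498), with DESeq2 (-1.57, adjusted p = 0.0137), with RLE size factors in edgeR (-1.57, adjusted p = 0.0395) and in predicted stem and multipotent cells alone (-1.93, edgeR adjusted p = 0.00657). With limma on the mean log2 CPM per cell the Notch1 value was 0.035, of the opposite sign.

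The high Notch1 of day 1 rested on the 9 and 13 cells of L83 and L87, and day 1 had other signals. The macrophage marker list (12 of its 13 genes read, Mertk at 0) summed to 341, 1051 and 1263 CPM in the day 1 libraries against 1.80 to 131 CPM in iHSC, and the dendritic cell list (5 of 6 genes, Cd209a at 0) to 397 to 799 CPM against 29.2 to 464 CPM. The neutrophil list (all 7 genes read) summed to 2159, 6263 and 102539 CPM in day 1 libraries L84, L83 and L87, against a median of 346 CPM in iHSC (20.4 to 20856). Day 1 is also the shallowest group apart from B, NK and megakaryocytes, with 61 cells. The part of these features in the Notch1 level was not tested.

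Notch2 (chr3:98013527-98150361, plus strand), the receptor used by marginal zone B cells and by some dendritic and myeloid cells, had its highest levels in myeloid phenotypes. Macrophages stood at 70.3 CPM, monocytes at 45.1 CPM and granulocytes at 43.7 CPM, with 41.4%, 47.7% and 38.2% of their cells detected at equal depth. The lowest levels were those of CD8 T cells (2.42 CPM, 4.01% of cells), LT_HSC (4.89 CPM, 10.9%) and CD4 T cells (5.07 CPM, 2.68%). Over libraries the myeloid sums ran from 24.9 to 70.3 CPM and the iHSC sums from 1.80 to 75.3 CPM, which overlap. The log2 difference of myeloid cells from iHSC was 1.82 (SE 0.633) and missed the threshold (edgeR adjusted p = 0.0519). It passed when 1 of 3 single iHSC libraries (L49, L50 or L55) was left out and when only sums of at least 10 cells were used (1.98, edgeR adjusted p = 0.0277).

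Across time the Notch2 libraries of all 4 days lay inside the iHSC range. The means for days 1, 3, 5 and 7 were 34.7 ± 24.2, 38.3 ± 17.2, 21.7 ± 8.13 and 16.95 ± 9.78 CPM (SD, n = 3, 3, 7 and 10), beside 23.3 ± 23.2 in iHSC. The lowest single library was in iHSC (1.80 CPM), as was the highest (75.3 CPM), and the largest fitted log2 difference from iHSC was 0.60 on day 3 (SE 0.705).

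**Figure D1:**
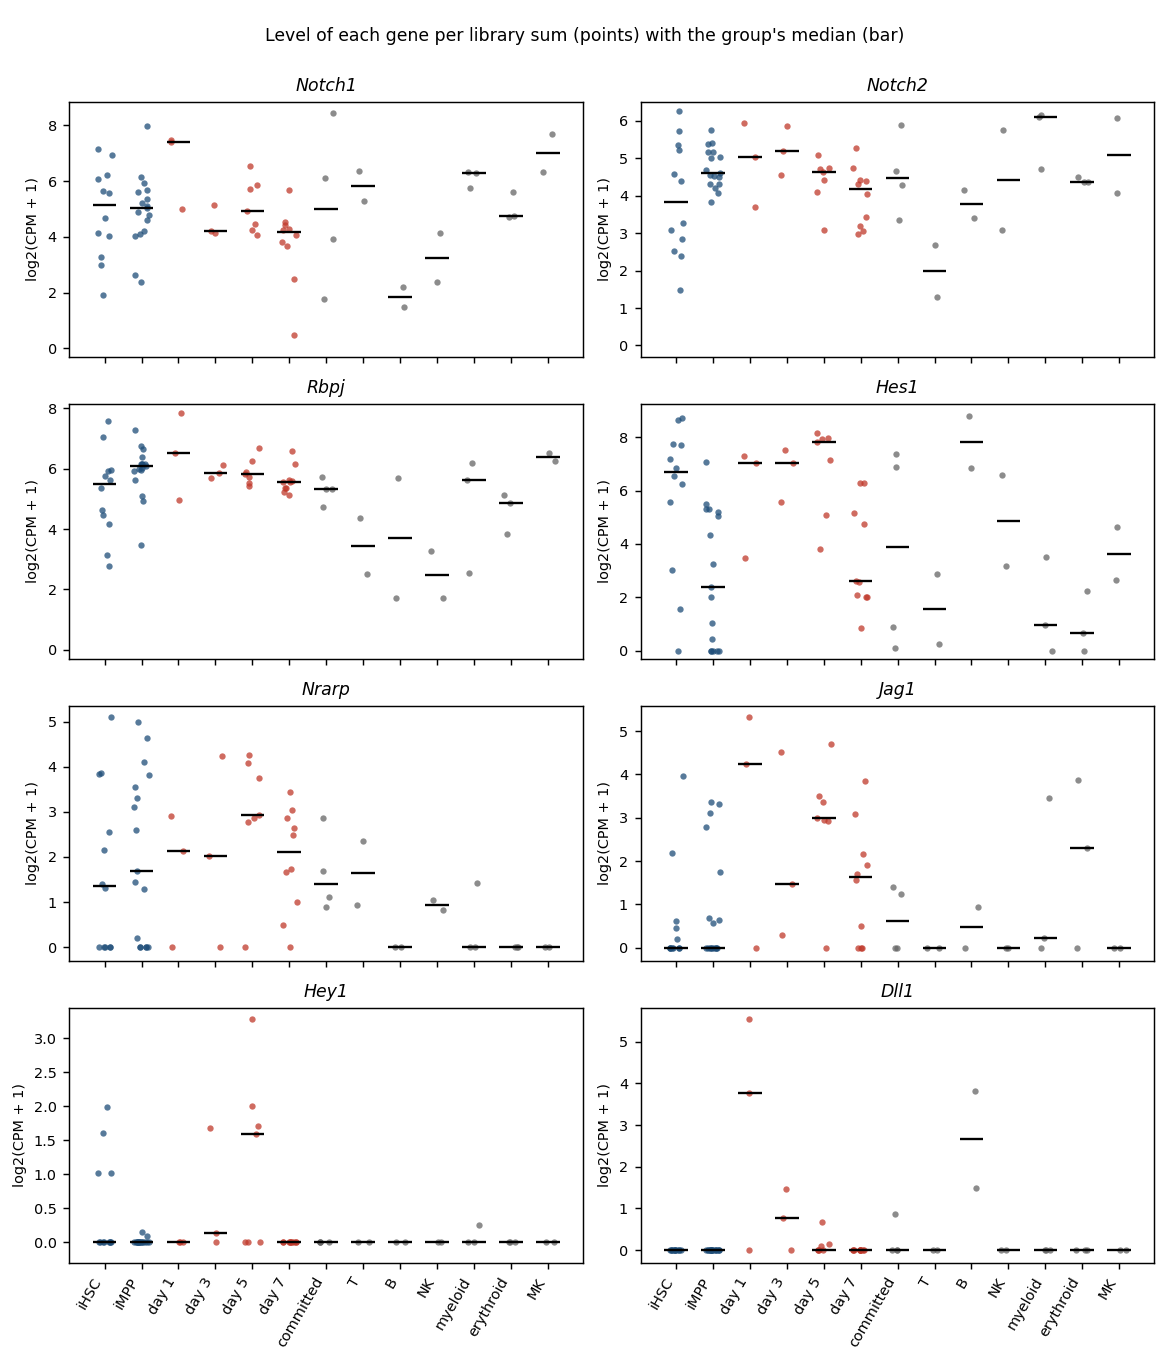
Level of each of the 8 genes per library sum, as log2(CPM + 1) on the vertical axis, for the steady state groups and collection days on the horizontal axis; each point is 1 library and each bar the median of its group. Hes1 points spread from 0 to over 400 CPM within iHSC and sit low on day 7 (0.796 to 76.1 CPM), and Hey1 and Dll1 points above 0 are few.

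Jag1 (chr2:137081456-137116644, minus strand), a ligand of the Jagged kind that niche and endothelial cells present, was sparse in steady state cells. It was read in 51 of 1270 steady state cells (4.02%) and in 177 of 1031 transplanted cells (17.2%). It had no count in 11 of the 28 phenotypes, among them LT_HSC, MPP1, MPP4, CMP, GMP and MEP. Where it was read, few cells carried it: 1 cell with 162 counts made the whole ESLAM level of 11.1 CPM, and 5 of 49 cells made the 10.2 CPM of Fraction II.

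Jag1 had a larger share of cells than iHSC on days 1, 3 and 5, of which only day 5 was tested on shares. Over all cells of a group, the equal-depth share was 11.5% on day 1, 6.23% on day 3 and 9.92% on day 5, beside 1.42% in iHSC. The day 3 libraries ran from 0.222 to 22.0 CPM with a median of 1.78. The day 5 libraries stood at 0 CPM (L66), 6.65 (L68), 25.2 (L69), 6.95 (L70), 10.4 (L71), 9.21 (L72) and 6.72 CPM (L86), and the iHSC libraries ran from 0 to 14.7 CPM with a median of 0. In 6 of the 7 day 5 libraries the level was above that of every iHSC library but L73, where 162 of 216 counts came from the ESLAM cell, and L69 was the highest. At equal depth Jag1 was detected in 8.80% ± 5.69 of cells per day 5 library (n = 7) and 0.692% ± 1.27 per iHSC library (n = 12). The difference of 8.11 percentage points passed an exact two-sided permutation test over libraries (p = 0.000556, Benjamini-Hochberg adjusted p = 0.0167 over 30 tests of 6 genes in 5 comparisons). It kept passing when each of the 19 libraries was left out in turn, with differences of 6.40 to 9.58 points.

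The summed Jag1 level did not pass the test across all genes. The log2 difference of day 5 from iHSC was 2.50 (SE 1.12, edgeR adjusted p = 0.175), and on day 1, with libraries at 39, 18 and 0 CPM, it was 3.40 (SE 1.34, edgeR adjusted p = 0.182). Library L73 decided both calls, since without it the edgeR log2 differences were 4.16 on day 5 (adjusted p = 0.0207) and 5.07 on day 1 (adjusted p = 0.0249). The endothelial marker list, of interest because endothelial cells present Jag1, summed to 32.2 to 162 CPM on day 5 with Cdh5 at 0, and to 0 to 340 CPM in iHSC with Cdh5, Flt4 and Sox17 at 0.

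On day 7 Jag1 was again in fewer cells. The 10 libraries ran from 0 to 13.3 CPM with a median of 2.11, and the share at equal depth was 2.41% ± 2.31 of cells. It fell by 6.40 percentage points from day 5 (exact permutation p = 0.00524, adjusted p = 0.0315). The call was lost in 9 of 17 repeats that left out 1 library, with an adjusted permutation p of up to 0.0637, and without thinning the fall was 14.2 points (adjusted permutation p = 0.112). Against iHSC, the day 7 share was 1.71 points higher, which was not called.

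Dll1 (chr17:15367354-15376872, minus strand), the Delta ligand, was found in 13 of 2301 annotated cells. In steady state these were 3 B cells (33, 3 and 1 counts) and 1 CLP (3 counts). None of the 305 iHSC or 508 iMPP cells had a count, which allows a share of up to 0.984% and 0.591% of cells with a count, for counting error only. The B cell libraries stood at 1.82 and 13.2 CPM, and over the group the level was at least 129-fold higher than in iHSC and at least 33.8-fold higher than in T cells, both against a floor of 3 counts over the group. The 3 B cells also held counts of 3 to 5 of the 5 NK cell markers, and both of their libraries were sorted together with NK cells.

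The 9 transplanted cells with Dll1 were spread over days 1, 3 and 5. On day 1 a cell of library L87 held 34 counts and 2 cells of L83 held 14 and 1, so that the libraries stood at 45.6, 12.7 and 0 CPM. On day 3 single cells of L89 and L79 held 8 and 7 counts, giving 1.78 and 0.691 CPM, and L85 had none. On day 5 the highest cell had 11 counts (L70), the other 3 cells had 1 count each, and on day 7 none of 389 cells had a count. The cell of L87 was predicted as tMPP5, held 84977 counts, and had counts of 3 of the 5 B cell markers in the table, 3 of 6 dendritic cell markers and 0 of 6 HSC markers. The cell of L83 with 14 counts was predicted as tMPP1 and had counts of 1 of the 5 B cell markers and 3 of 6 HSC markers. Counting error alone is large at this number of cells, and the order of the days rests on these 9 cells.

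Rbpj (chr5:53466152-53657362, plus strand), the DNA-binding partner of all Notch receptors, was the most widely detected of the 8 genes, in 817 of 1270 steady state cells (64.3%) and 731 of 1031 transplanted cells (70.9%). Its counts are less certain than those of the others, because the gene has pseudogene copies and the rule for reads that fit several places is not given in the sources used here. Its level was highest in HPC2 (102 CPM), Fraction I (88.9 CPM), megakaryocytes (84.3 CPM) and MPP2 (78.8 CPM), and lowest in macrophages (4.80 CPM), NK cells (4.91 CPM) and CD4 T cells (7.60 CPM). At equal depth it was found in 57.3% of MPP3 cells, 54.8% of HPC2 and 54.6% of monocytes, against 15.6% of LT_HSC and 6.03% of NK cells.

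Rbpj was detected in more cells of iMPP and of day 5 than of iHSC, while its summed level showed no such difference. The share at equal depth per library was 47.6% ± 18.0 in iMPP (n = 17) and 47.8% ± 7.09 on day 5 (n = 7) against 28% ± 13.9 in iHSC (n = 12). The difference was 19.6 percentage points for iMPP (permutation adjusted p = 0.0315) and 19.9 points for day 5 (exact permutation p = 0.00345, adjusted p = 0.0315). Without the 8 cells of library L66 the day 5 difference missed the threshold (adjusted permutation p = 0.0543). In the 5 libraries that held both iHSC and iMPP cells, the iHSC and iMPP shares were 9.97% and 25.8% (L14), 39.6% and 50.6% (L49), 49.9% and 56.0% (L50), 51.2% and 48.6% (L51), and 20.3% and 19.5% (L74). The share was higher in iMPP in 3 of these 5 libraries and slightly lower in the other two, and each within-library difference was smaller than the pooled one.

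The summed Rbpj level was 68.2 ± 32.7 CPM in iMPP and 61.7 ± 21.0 CPM on day 5, against 54.9 ± 54.2 CPM in iHSC. The log2 differences were 0.35 (SE 0.411) and 0.12 (SE 0.446), neither near the threshold. The 3 libraries of day 1 stood at 29.9, 90.6 and 229 CPM, those of day 3 at 51.3, 57.4 and 68 CPM, and the 10 of day 7 between 34.0 and 95.1 CPM. Day 3 was the tightest group and day 1 the widest, and all days overlapped iHSC (5.79 to 189 CPM).

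**Figure D2:**
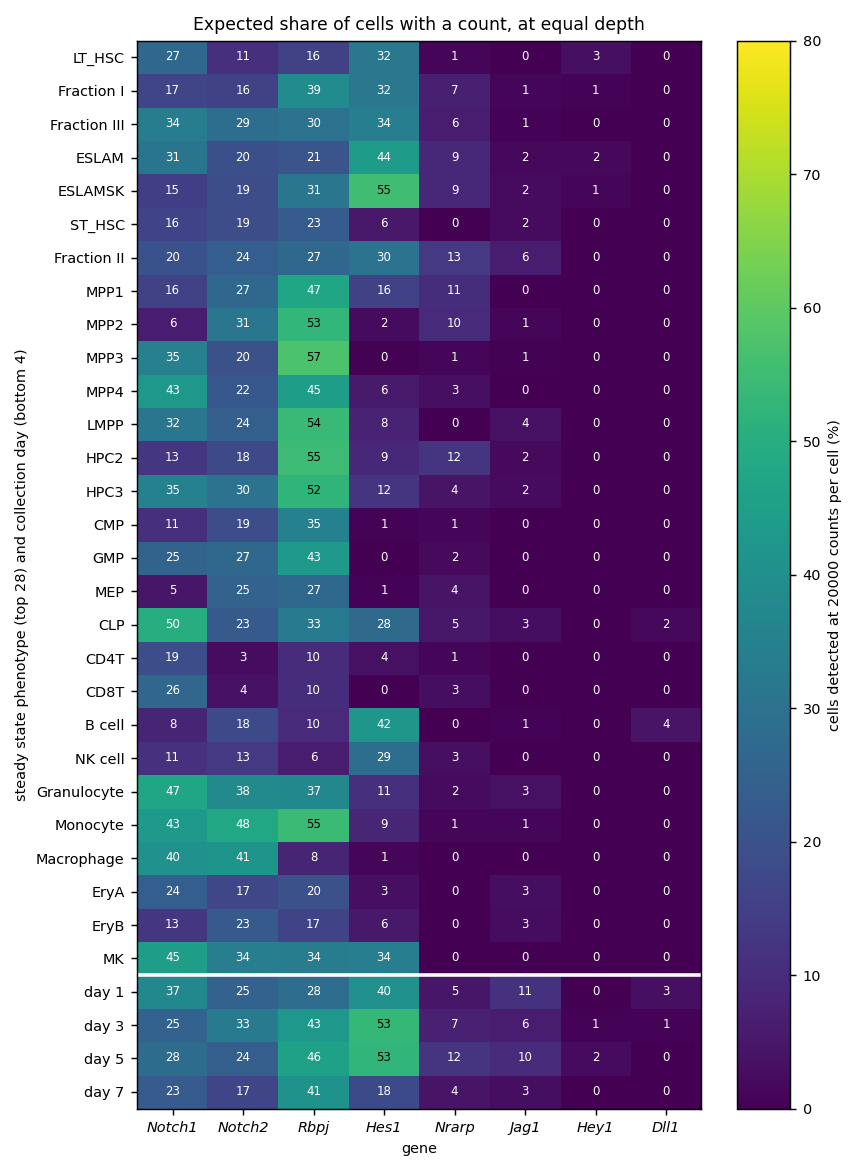
Expected percentage of cells with at least 1 count at 20000 counts per cell (colour) for each of the 8 genes (horizontal axis) in the 28 steady state phenotypes and the 4 collection days (vertical axis). Hes1 is high in ESLAMSK (55.4%), ESLAM (44.3%) and B cells (42.3%) and at or near 0 in MPP3, GMP and CD8 T cells, and Rbpj is seen across nearly all rows.

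Hes1 (chr16:30064384-30067796, plus strand), a repressor that is a classical Notch target and responds to other signals as well, was the most variable of the widely read genes. In steady state it was highest in ESLAMSK and B cells (both 270 CPM), LT_HSC (218 CPM), ESLAM (187 CPM) and CLP (146 CPM), and Fraction III (106 CPM) and Fraction I (82.4 CPM) followed. It was lowest in MPP3 (0.156 CPM), CMP (0.116 CPM) and MEP (0.865 CPM). GMP and CD8 T cells had no count, which for 24 and 42 cells is a weak limit. Stem cell phenotypes, B cells and the lymphoid progenitor thus had the highest values, and myeloid and erythroid progenitors the lowest.

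Hes1 was lower in iMPP than in iHSC. The 12 iHSC libraries ran from 0 to 424 CPM with a median of 104, and the 17 iMPP libraries from 0 to 134 CPM with a median of 4.29. No Hes1 count was found in 5 iMPP libraries and in 1 iHSC library (L15, 17 cells), and the ranges overlap. The log2 difference was -2.80 (SE 0.937, edgeR adjusted p = 0.0477), 1 of 2 calls among the 7 genes tested when 9.43% of all 13827 genes were called. The call is marginal: it was lost in 20 of 29 fits that left out 1 library, with edgeR adjusted p up to 0.0849, while the direction stayed. The share of cells at equal depth told the same direction, 10.0% ± 11.5 per iMPP library against 32.5% ± 23.7 per iHSC library (permutation adjusted p = 0.0315), and this passed in all 29 such repeats.

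The libraries that held both groups allow a comparison inside a library. Hes1 stood at 74.9 CPM in iHSC and 19.3 in iMPP cells of L49, at 144 and 38.9 CPM in L50, at 209 and 38.7 CPM in L51, and at 394 and 44.4 CPM in L74. It was lower in iMPP in these 4 and higher in the fifth, L14, with 7.19 CPM in 10 iHSC cells and 35.5 CPM in 22 iMPP cells.

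Across time Hes1 stood within the iHSC range on every day and was lowest on day 7. Day 1 libraries stood at 10.2, 131 and 157 CPM and day 3 libraries at 46.9, 131 and 181 CPM. Day 5 libraries stood at 241 CPM (L66), 252 (L68), 281 (L69), 227 (L70), 139 (L71), 32.9 (L72) and 12.9 CPM (L86). The 10 day 7 libraries ran from 0.796 CPM (L60) to 76.1 CPM (L47) with a median of 5.06, so that 5 of the 7 day 5 libraries were above all of day 7. Of these 5, L66, L68, L69 and L70 were labelled spleen alone, a label that no day 7 library had, so day and organ cannot be told apart there. Libraries L72 and L86, which held marrow, lay inside the day 7 range.

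Against iHSC, the day 7 level fell by 2.59 on the log2 scale (SE 0.775, edgeR adjusted p = 0.0140). This was the only call among the 6 genes tested, in a comparison where 20.8% of all 13353 genes were called. It held in all 22 fits that left out 1 library and in 7 of 8 other settings; with limma on the mean log2 value per cell it was -1.48 (adjusted p = 0.205). Restricted to cells predicted as stem or multipotent types it was -2.32 (edgeR adjusted p = 0.0222). No gene was called on day 1 (3.14% of all genes called), day 3 (1.12%) or day 5 (7.57%) in edgeR, where the number of the 6 genes at an unadjusted p under 0.05 was 1, 0 and 1. DESeq2 and limma voom called none on days 1 and 3, and on day 5 DESeq2 called none and limma voom called 1, Jag1. The median log2 difference of the 6 genes was 0.73, -0.03, 0.12 and -0.45 on days 1, 3, 5 and 7, beside -0.26, -0.17, -0.12 and -0.10 over all genes.

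Day 7 against day 5 gave a Hes1 log2 difference of -2.70 (SE 0.834), which missed the threshold (edgeR adjusted p = 0.132), as did the other 5 genes when 0.404% of all genes were called. Limma voom called it (-3.30, adjusted p = 0.0487), DESeq2 called none of the 6, and Hes1 was the 1 gene at an unadjusted p under 0.05. The share of Hes1 cells at equal depth per library was 16.7% ± 14.3 on day 7 and 52.8% ± 32.7 on day 5 (exact permutation p = 0.0111, adjusted p = 0.0555). As deposited, 149 of 389 day 7 cells (38.3%) and 262 of 336 day 5 cells (78%) had a Hes1 count.

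Other cell states moved with this fall. The HSC marker list (all 6 genes read) summed to 22.8 to 142 CPM on day 7 and 332 to 1027 CPM in iHSC, which do not overlap, and to 89 to 305 CPM on day 5. The neutrophil list (all 7 genes read) had a median of 12626 CPM on day 7 (142 to 32933), 153 CPM on day 5 (3.24 to 18608) and 346 CPM in iHSC (20.4 to 20856). Their part in the Hes1 values was not tested. Within the predicted type tMPP1 the equal-depth Hes1 share was 48.8%, 55%, 54.6% and 25.3% of cells on days 1, 3, 5 and 7, and within tMPP2 it was 48.6%, 46.5%, 49.6% and 23.4%. In these types day 7, with 16 cells of tMPP1 and 93 of tMPP2, was the lowest day, which was not so in the other types with cells on each day. The tMPP5 shares were 39.9%, 48.6%, 58.9% and 40.4% (4, 16, 74 and 58 cells), and those of tMPP4 were 3.02%, 90.7%, 71.5% and 58.9% (3, 4, 12 and 23 cells).

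The Hes1 levels of day 5 split by organ label. The 4 libraries labelled spleen alone (L66, L68, L69 and L70) held 227 to 281 CPM, and the 3 libraries with marrow held 139 CPM (L71, marrow and spleen), 32.9 CPM (L72, marrow alone) and 12.9 CPM (L86, marrow and spleen). All 4 spleen libraries lay above the other 3, and the share of all genes with such a split is not given here. In L66, which had 8 cells, 251 of the 260 counts came from 1 cell, but in L68, L69 and L70 every cell had Hes1, and the equal-depth shares were 83.5%, 83.6% and 84.2% against 58.4% (L71), 15.7% (L72) and 10.8% (L86).

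The test across all genes did not separate the 2 labels. For Hes1 the log2 difference of spleen from the libraries with marrow was 2.02 (SE 1.34, edgeR adjusted p = 1), and none of the 6 genes and 0% of all genes were called, with 0 of the 6 and 380 of all genes at an unadjusted p under 0.05. DESeq2 called 18 genes of the whole table and limma voom 1, none of the 6. On shares of cells, 4 against 3 libraries can reach no exact two-sided permutation p below 0.0571. Notch1 reached it, with 41.5% ± 9.91 of spleen cells and 19.3% ± 2.70 of the others (adjusted p = 0.157), and Hes1 had p = 0.114 (exact permutation, adjusted p = 0.202). The Notch1 levels themselves were 29.2 to 92.7 CPM in the spleen libraries and 15.9 to 20.8 CPM in the others.

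On days 1 and 7 the label gave fewer contrasts. The day 1 library from marrow alone, L87, had Hes1 at 157 CPM, the highest of its 3. The day 7 library from marrow alone, L60, had Hes1 at 0.796 CPM, Jag1 at 0 and Nrarp at 0.996 CPM, the lowest Hes1 of its 10. In steady state iHSC, 6 marrow libraries averaged 164 ± 194 CPM and 6 libraries of marrow and spleen 123 ± 82.3 CPM, which overlap.

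**Figure D3:**
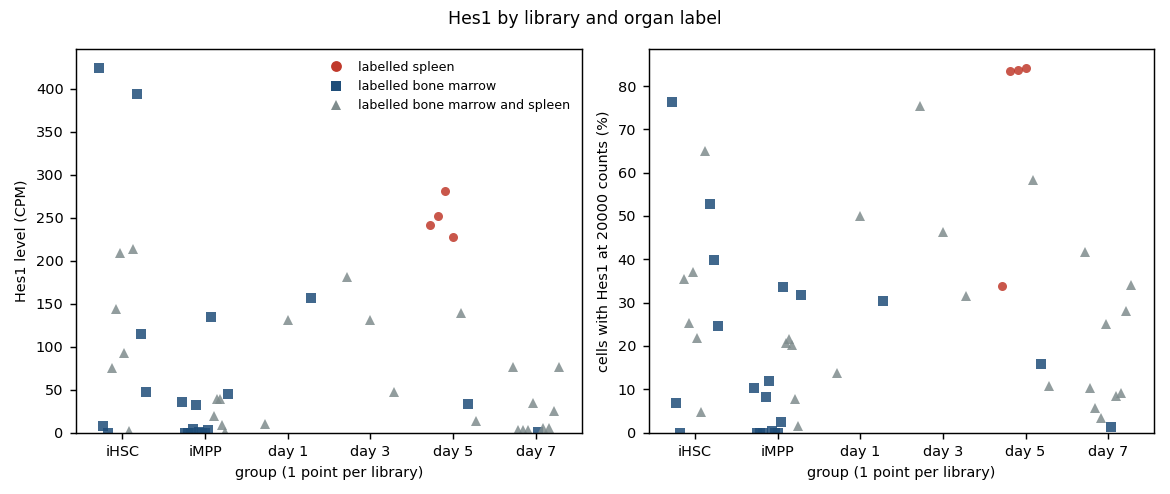
Hes1 by library (1 point each) for the collection days, iHSC and iMPP, as CPM of the library sum and as the percentage of cells detected at 20000 counts per cell, coloured by organ label. The 4 day 5 points from spleen alone sit between 227 and 281 CPM, above the 3 with marrow, and the day 7 point from marrow alone is the lowest of its day.

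The gene whose level followed Hes1 most closely over 84 library sums was Nr4a1, an immediate early gene of the nuclear receptor family, with a Pearson r of 0.71 on the log2(CPM + 1) scale among 11764 genes; the sums share cells' libraries and depth, and no p is given. Nr4a1 showed the same split on day 5, with 179 to 235 CPM in the 4 spleen libraries and 108, 23.7 and 9.33 CPM in L71, L72 and L86. Its means were 274 ± 184 CPM in iHSC, 138 ± 93.0 on day 5, 51.7 ± 74.4 in iMPP and 10.1 ± 14.1 on day 7. The next in likeness were Csrnp1 (0.68), another immediate early gene, and Nfat5 (0.63). Nr4a1 was picked as the most alike gene over sums that include these groups. Its likeness to Hes1 in iMPP, on day 7 and by organ label therefore follows from the choice and is no separate result. From iHSC to day 5 the means went different ways, with Hes1 at 144 and 169 CPM and Nr4a1 at 274 and 138 CPM. The part of Nr4a1 in the Hes1 differences was not tested.

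Hey1 (chr3:8663359-8667256, minus strand), the other repressor among the targets, was read in 52 cells: 14 of iHSC, 2 of iMPP, 1 monocyte, 2 of day 3 and 33 of day 5. In steady state 12 of the 17 cells were ESLAM or ESLAMSK, 6 of each. The iHSC libraries with counts were L1 (1.03 CPM), L51 (2.06), L73 (1.02) and L74 (2.99 CPM), the other 8 had none, and the iMPP libraries averaged 0.00978 ± 0.0287 CPM. The 4 iHSC libraries with counts all lay above the highest iMPP library at 0.106 CPM.

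In iMPP, Hey1 was 4.47 lower than in iHSC on the log2 scale (SE 0.942, edgeR adjusted p = 0.00158), the other call among the 7 steady state genes. It passed the filter on low counts through the iHSC sums, where it is high, so the p does not stand as support. The raw counts were 31 in iHSC and 2 in iMPP, a ratio per count sequenced of 61.5 (95% interval 15.7 to 530, counting error only). Both iMPP counts came from L51 and L74, the 2 shared libraries whose iHSC cells also held Hey1. Without iHSC library L51 or L74 the gene dropped out of the fit, it had no adjusted p with DESeq2 or in a fit of the 2 groups alone, and it was called in the other 27 fits without 1 library. On the mean log2 CPM per cell the Hey1 difference was -0.13 (limma adjusted p = 0.0312). Of the 52 cells, 39 (75%) held only 1 or 2 counts, and 36 of these 39 were in the 8 libraries that also had a cell with at least 5, so where single counts came from was not tested.

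In the transplanted cells Hey1 was read on days 3 and 5 and not on days 1 and 7. On day 5 the libraries stood at 8.76 CPM (L69), 3.02 (L70), 2.27 (L71) and 2.02 (L68), with none in L66, L72 and L86. The cells with most counts had 78 and 27 (both L69), 40 (L70), 24 (L71) and 23 (L68). By organ label, 25 of 164 cells from spleen alone, 8 of 118 from marrow and spleen and 0 of 54 from marrow alone held it. For 61 cells of day 1 and 389 cells of day 7, no count allows a share of up to 4.92% and 0.771% of cells with a count, for counting error only. In iHSC the level was at least 25.5-fold higher than on day 7, against the floor of 3 counts over the group. Day 5 held 242 Hey1 counts and day 3 held 14, of which 13 were in 1 cell. The predicted types of the day 3 and day 5 cells were tMPP2 (19 cells), tMPP5 (7), tMPP1 (6) and tMPP4 (3), and none was a predicted stem cell, of which days 3 and 5 held only 12 and 5. In steady state 14 cells with Hey1 were tHSC1, tHSC2 or tHSC3.

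**Figure D4:**
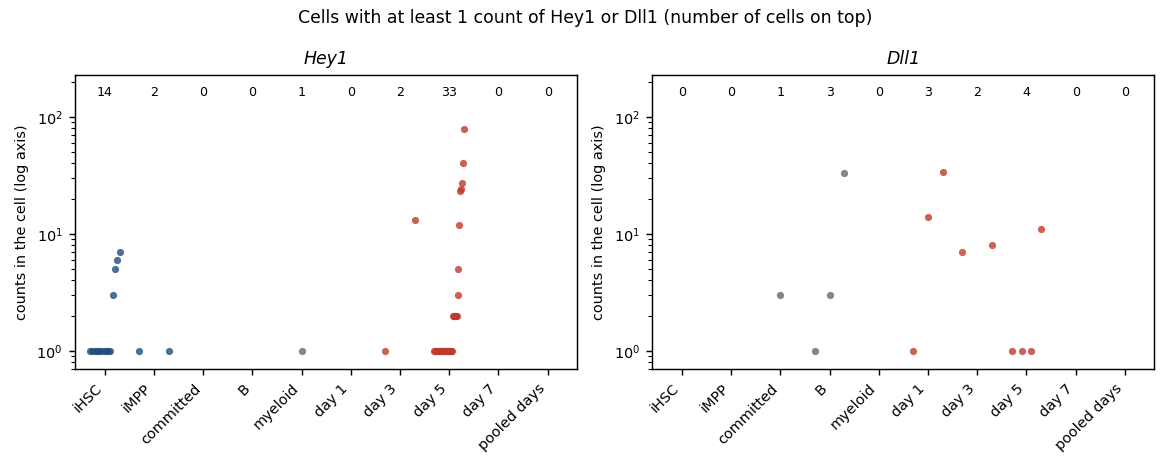
Counts of Hey1 and Dll1 (vertical, log axis) in each cell with at least 1 count, by group (horizontal); the number of such cells is printed above each group. Hey1 has 33 cells on day 5 and 14 in iHSC, most at 1 or 2 counts with a few from 23 to 78, and Dll1 has 13 cells in all with the highest at 34 and 33 counts.

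Nrarp (chr2:25180758-25183339, plus strand), the target that dampens Notch signalling, was read in 202 steady state cells (15.9%) and 208 transplanted cells (20.2%). Its highest phenotype levels were in Fraction II (28 CPM), HPC2 (14.4 CPM), MPP1 (13.1 CPM), ESLAM (11.7 CPM) and ESLAMSK (11.1 CPM), and 7 phenotypes, B cells, both erythroid stages, megakaryocytes, macrophages, ST_HSC and LMPP, had no count. Over all cells and against a floor of 3 counts over the group, iHSC was at least 34.9-fold higher than erythroid cells and at least 14.3-fold higher than B cells, for counting error only. Over libraries, edgeR gave an adjusted p of 0.0798 for the erythroid difference and 0.202 for the B cell difference. The day 5 libraries ran from 0 to 18.1 CPM with a median of 6.63, the day 7 libraries from 0 to 9.85 CPM with a median of 3.47 and the iHSC libraries from 0 to 33.3 CPM with a median of 1.56. All days overlapped iHSC, and the largest fitted difference was -1.04 on day 1 (SE 1.53).

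In the other steady state comparisons no gene was called in edgeR. The background of called genes was 5.87% for committed progenitors, 6.78% for T cells, 8.75% for B cells, 11.3% for myeloid cells and 14.1% for erythroid cells, each set against iHSC, and 0.918% for B against T cells. The number of the 7 genes at an unadjusted p under 0.05 was 1, 0, 1, 2, 3 and 2 in the same order. DESeq2 called 1 of the 7 in T, B and myeloid cells and in B against T cells, 2 in erythroid cells and none in committed progenitors, and limma voom called 2 in committed progenitors, 1 in myeloid cells and none in the other 4. Hey1 was the 1 in committed progenitors and is among the 3 in erythroid cells. Among the values nearest the threshold were Hes1 in erythroid cells (-6.01, edgeR adjusted p = 0.0835) and Notch1 in B cells (-3.54, edgeR adjusted p = 0.107). Hey1 in committed progenitors (-5.11, edgeR adjusted p = 0.0745) had no count there. It passed the filter on low counts through the iHSC sums, so its p values in these comparisons do not stand as support. Hes1 had 114 and 448 CPM in the 2 B cell libraries and 0.179 and 6.26 CPM in the 2 T cell libraries (edgeR adjusted p = 0.334).

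Receptor and target in the same cell can be set side by side. On day 5, 90.3% of cells with a Notch1 count and 60.7% of cells without had Hes1. On day 7 the shares were 36.8% and 40%, in iHSC 72.3% and 53.6%, and in iMPP 28.5% and 30.5%. Cells with Notch1 were deeper in each group, with median totals of 291008 against 206523 on day 5 and 193102 against 88365 in iHSC, and the part of depth in these shares was not tested. Hes1 was in 91.6% of day 5 cells with Nrarp and in 70.5% of those without. The shares were 86.2% and 56.3% in iHSC and 48.2% and 24.0% in iMPP. The day 5 shares pool the organ labels. Notch1, Nrarp and Hes1 were read in 77.4%, 46.3% and 98.2% of day 5 cells from spleen alone. From marrow alone the shares were 50%, 25.9% and 68.5%, and from marrow and spleen 35.6%, 24.6% and 54.2%. The part of the organ label in the pairing was not tested. Over the 84 library sums the highest correlations between members were those of Hey1 with Hes1 (r = 0.47) and Jag1 with Nrarp (r = 0.44), and Notch1 with Hes1 was at 0.06.

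The authors' predicted types let cells of a like overall state be set beside each other, as a description only, since the types were made from the same expression values. Hes1 was read in a larger share of transplanted than of steady state cells in each of the 5 multipotent types. The equal-depth shares, steady state first, were 24.7% and 49.7% in tMPP1, 6.83% and 40.6% in tMPP2, 0.533% and 4.21% in tMPP3, 7.77% and 60% in tMPP4 and 5.80% and 49.8% in tMPP5. Type tMPP3 was the lowest in both origins, and in steady state only tMPP1 among them came near the stem cell types (41.8% in tHSC1, 32.4% in tHSC2). Jag1 went the same way, with 2.88% and 11.8% in tMPP1, 1.302% and 6.94% in tMPP2, 0.475% and 3.46% in tMPP3, 1.43% and 8.50% in tMPP4, and 2.43% and 5.99% in tMPP5. The transplanted cells include those of day 5 from spleen alone, a label that no iHSC or iMPP library had. Those spleen cells had Hes1 in 81.3% at equal depth, and the part of the organ label was not tested.

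The receptors and Nrarp did not follow 1 direction over the types. Notch1 was in 8.14% of steady state and 20.8% of transplanted tMPP2 cells, and in 38.5% and 21.1% of tMPP4 cells. Nrarp was in 0.655% and 11.6% of tMPP4 cells, and in 13.4% and 9.31% of tMPP2 cells. The transplanted cells of a type mix collection days, and only 16 transplanted cells were tHSC1, of which 29.1% had Jag1 at equal depth.

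**Figure D5:**
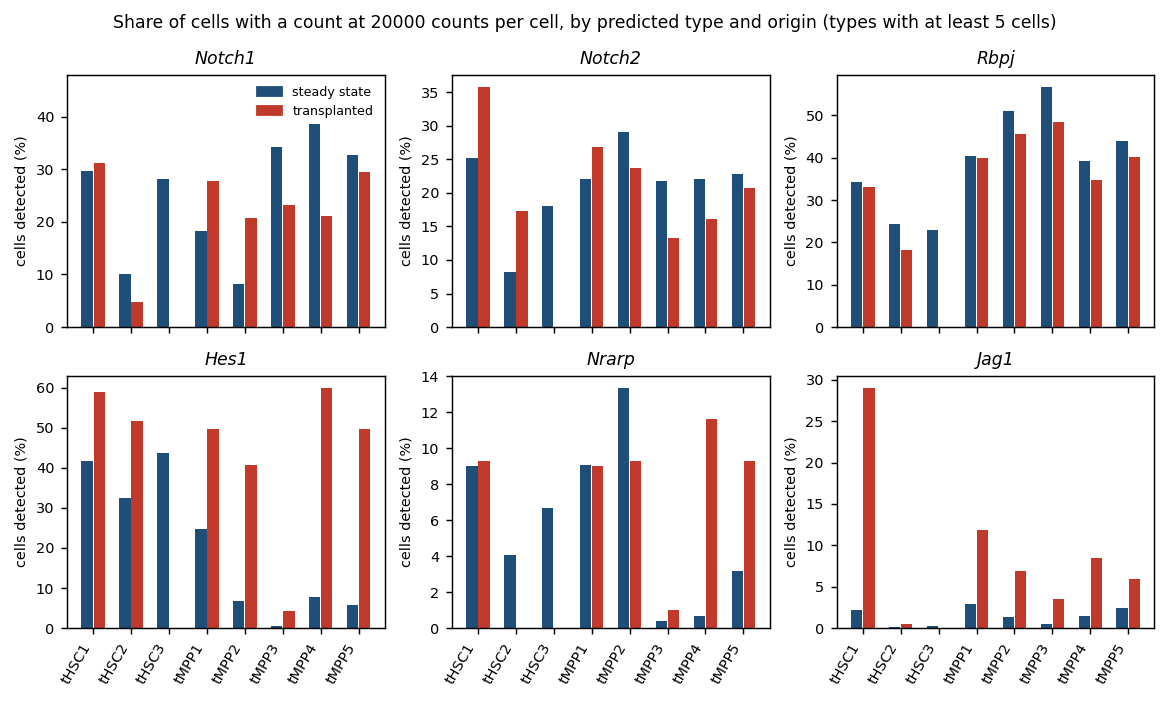
Percentage of cells with a count at 20000 counts per cell (vertical axis) for each gene in the authors' predicted types (horizontal axis, types with at least 5 cells), with separate bars for steady state and transplanted cells. For Hes1 and Jag1 the transplanted bar is the taller one in tMPP1 to tMPP5, for example 40.6% against 6.83% for Hes1 in tMPP2.

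Around the 8 genes, 65 other Notch pathway genes were followed in 5 lists: other receptors and ligands (8 genes), receptor maturation and cleavage (15), ubiquitination and trafficking (13), nuclear cofactors (16) and other targets (13). On day 7, 14 of the 58 tested were called, 3 higher and 11 lower than in iHSC, when 20.8% of all genes were called, with a median log2 difference of -0.63 beside -0.10 over all genes. The day 5 comparison called 3, all lower (median -0.46 beside -0.12), when 7.57% of all genes were called, and that of day 1 called 1, which was higher, beside 3.14%. The edgeR test called none on day 3, with 3 at an unadjusted p under 0.05, and DESeq2 and limma voom called none either. DESeq2 called 3, 6 and 18 for days 1, 5 and 7, of which 0, 0 and 2 were higher, and limma voom 0, 6 and 16, of which 0, 2 and 5 were higher. The direction turned with limma on the mean log2 CPM per cell, which called 11 of 62 on day 5, all 11 higher, and 19 on day 7, 13 of them higher. The ligand and receptor list had the lowest day 7 median, -4.62, with Jag2, Dll4 and the inhibitory ligand Dlk1 called lower of 5 tested. Its median was negative in every comparison with iHSC, for example -5.58 on day 1, -2.92 on day 5 and -6.72 in T cells, so it is not particular to day 7. Jag2, Dll4 and Dlk1 had 47, 27 and 13 counts on day 7 and 693, 326 and 276 in iHSC. They may have passed the filter on low counts through the iHSC sums, so their calls do not stand as support.

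Named by the smallest p on day 7 were Dtx3, Maml2, Jag2, Mfng, Mib2 and Dlk1. Dtx3, a ubiquitin ligase of the Deltex family, stood at 19.5 ± 13.2 CPM on day 7 and 78.1 ± 38.1 in iHSC (log2 difference -1.99, edgeR adjusted p = 0.000914). Maml2, a coactivator of the RBPJ complex, stood at 2.52 ± 3.14 against 24.4 ± 21.3 CPM (-3.16), and Mfng, a glycosyltransferase that tunes ligand choice, at 40.8 ± 29.8 against 145 ± 66.5 CPM (-1.77). Jag2 stood at 0.345 ± 0.425 against 9.32 ± 11.8 CPM (-4.64), and Mib2, a ligase for ligand uptake, at 7.66 ± 4.58 against 29.8 ± 20.6 CPM (-1.94). Dlk1 stood at 0.1004 ± 0.147 against 3.17 ± 4.69 CPM (-4.66). On day 5, Dtx3 (-1.58), the corepressor partner Cir1 (-1.19) and Dtx1 were lower, the last with 0 counts on day 5 and 17 in iHSC, from 2 libraries. On day 1 Bcl11b, a T lineage factor, was called higher (8.80 ± 10.4 against 0.163 ± 0.352 CPM, edgeR adjusted p = 0.0462). It had 54 counts in 2 day 1 libraries and 17 in 3 iHSC libraries. Bcl11b may have passed the filter on low counts through the sums where it is high, so its call does not stand as support. On day 1 DESeq2 called no list gene higher, and limma voom called none.

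In steady state, iMPP differed from iHSC in 4 of 59 tested list genes, when 9.43% of all genes were called. Kdm5a, a histone demethylase that binds RBPJ, fell by 1.55 on the log2 scale (50.9 ± 19.96 against 146 ± 129 CPM), the ligand Dll4 fell by 4.32, and Dtx4 rose by 3.72. Dll4 had 74 counts in iMPP, from 3 libraries, and its call has the same limit as on day 7. Dtx4 had 62 counts in iHSC, from 4 libraries, and may have passed the filter through the iMPP sums. The ligand Dll3 had no count in iMPP, and its 39 counts in iHSC were all in library L76. T cells had 8 called, with the T lineage genes Tcf7 (203 ± 63.8 against 0.744 ± 1.66 CPM), Bcl11b, Il2ra and Dtx1 and the glycosyltransferase Lfng higher and Ctbp2 lower. B cells had 5 called: the complement receptor Cr2 (241 ± 134 against 2.92 ± 6.83 CPM), Adam17 and Dtx1 were higher, and Dtx3 and Adam10, a protease that cuts the receptor, were lower. Myeloid cells had 5 called, among them Numb higher and Mfng, Myc and Gata3 lower, erythroid cells had 3 called, among them Ep300 higher and Mfng lower, and committed progenitors had 3 called, Tcf7, Il2ra and Bcl11b, all higher. Library L28 held 91.1% of the Il2ra and 99.3% of the Bcl11b counts of the committed progenitors. The calls of Tcf7, Il2ra and Bcl11b in committed progenitors, and of Cr2 and Dtx1 in B cells, have the same limit as those in T cells. Of all genes, 6.78%, 8.75%, 11.3%, 14.1% and 5.87% were called in T, B, myeloid, erythroid and committed cells. The list medians were -0.50, -0.28, -1.78, -0.44, -0.69 and -0.28 in iMPP, T, B, myeloid, erythroid and committed cells, beside -0.11, -0.47, -0.91, -0.37, -0.41 and -0.08 over all genes. No list gene was called with edgeR in day 7 against day 5, in B against T cells or in the day 5 organ comparison, with 3, 14 and 2 at an unadjusted p under 0.05. DESeq2 called 0, 5 and 0 there and limma voom 1, 3 and 0. In the other steady state groups, in the order of the medians above, DESeq2 called 3, 11, 13, 7, 12 and 4, of which 1, 2, 1, 2, 1 and 0 were higher, and limma voom 12, 8, 4, 5, 6 and 7, of which 2, 5, 4, 3, 4 and 0 were higher. With edgeR 1, 6, 3, 2, 2 and 3 were higher.

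For the other 7 genes, the genes with the most alike pattern over the 84 sums were Coro7 (r = 0.53), Abr (0.53) and Med13l (0.52) for Notch1, and genes that included Cd44 (0.54) and Glud1 (0.52) for Notch2. Jag1 was most like Stard13 (0.60), Enah (0.58) and Fjx1 (0.56), and Rbpj was most like Abcd3 (0.65), Zak (0.65) and Ltn1 (0.64). Nrarp was most like F2r (0.64), Gucy1a3 (0.63) and Etv5 (0.62), and Hey1 most like Morc4 (0.64), Hspb1 (0.58) and Rnf217 (0.57). Dll1 was most like Spib (0.70), Ell3 (0.60) and Pgap1 (0.56). Spib, a transcription factor of B and plasmacytoid dendritic cells, stood at 187 ± 213 CPM in B cells, 20.4 ± 24.0 on day 1 and 2.33 ± 7.90 in iHSC. With Dll1 and Hey1 at 0 in most sums, their correlations rest on few libraries.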

How the data were processed

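The deposited values are whole counts per gene and cell that the authors made with TopHat, HTSeq and the mm10 genome, per the submitters' processing notes, with no versions named. Whether a count is a read or a molecule, the annotation and the strand setting are not given in the sources used here. Phenotypes, days and predicted types are the authors' deposited annotation, and organ labels are those of the libraries. From there, counts were summed per library and group (at least 5 cells), and sums held 517741 to 30433157 counts. Genes were tested with edgeR 4.0.16 in R 4.3.3 (filterByExpr, TMM scaling, quasi-likelihood F test, two-sided, Benjamini-Hochberg over all genes, adjusted p under 0.05 called), which was tested on simulated data. The 3 fits covered the days with iHSC, the steady state groups, and the days with day 5 divided by organ label. CPM levels are scaled by total counts and are not compared between genes. Detection at equal depth is the expected share of cells with at least 1 count after thinning to 20000 counts, computed exactly, with no cell left out. Tests of it permute libraries, exactly or with 100000 resamples where both groups have 10 or more libraries. Alternatives used DESeq2 1.42.0, limma 3.58.1 and other filters. The 578 cells without annotation and the 120 cells of mixed days entered no comparison, and no 2 cells had identical counts.

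The 8 genes, the pathway lists and the marker lists were chosen with earlier results of these data known. The text names all 8 genes, up to 6 called list genes per comparison by smallest p, and the 3 genes most like each of the 8 over library sums, apart from genes that are not reported here. Library labels L4 and L49 name other cells than the annotation, which was followed.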

Additional observations from a re-analysis of the deposited data

Results flagged for a closer look

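Among 21 groups of 4 to 10 libraries whose spread was checked, 5 had 1 library far above the others, and the limit used flags by chance about 1 in 20 groups of normally spread values. Levels with many libraries at 0, such as those of Dll1, are not spread in that way, so the 5 are given as values only. Notch1 on day 7 stood at 50.8 CPM in library L59, with the next at 22.1 CPM. Jag1 on day 5 stood at 25.2 CPM in L69 (next 10.4), and Hey1 on the same day was highest in the same library at 8.76 CPM (next 3.02). Dll1 stood at 0.583 CPM in L70 on day 5 (next 0.105), from a cell with 11 counts, and at 0.83 CPM in L28 of the committed progenitors (next 0), from 1 CLP.

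Other values came from cells outside the comparisons and were above every iHSC library. Jag1 was at 14.8 CPM in the mixed-day library L88, against at most 14.7 in iHSC. Among cells without annotation, Notch1 was at 165 CPM and Jag1 at 17.4 CPM in L43 (iHSC at most 143 and 14.7), Hey1 at 6.61 CPM in L71 (2.99), Dll1 at 0.272 CPM in L72 (0) and Nrarp at 35.5 CPM in L76 (33.3). Of the 578 cells without annotation, 186 had at least 20000 counts, and what these cells are was not tested.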

How the results depend on the processing

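The reported number of Notch genes called was 1 on day 7, 2 in iMPP (Hes1, and Hey1, whose p does not stand as support) and 0 elsewhere, and it differed as follows. DESeq2 called 2 on day 7, 2 in erythroid cells and 1 each in iMPP, T, B and myeloid cells and in B against T cells. Limma voom called 1 on day 5, 1 in day 7 against day 5, 2 in committed progenitors and 1 in myeloid cells. Limma on the mean log2 CPM per cell, chosen after seeing the data, called 2 on day 5, 3 in iMPP (Rbpj at 1.76, adjusted p = 0.00301, among them) and 1 each in B cells, myeloid cells and B against T cells. RLE size factors and the stem and multipotent types alone each called 2 on day 7, and the second gene there was Notch1. Sums of at least 10 cells called 1 in B and 1 in myeloid cells, no filter on low counts 1 in B cells, and a fit of the 2 groups alone (also added later) 1 in iMPP and 1 in erythroid cells. Without 1 library the number ran from 0 to 1 on day 1 and on day 5 (1 without iHSC L73), from 1 to 2 on day 7 (2 without L59 or iHSC L1), from 0 to 2 in iMPP (0 without iHSC L51 or L74), and from 0 to 1 in B (1 without L3) and myeloid cells (1 without iHSC L49, L50 or L55).

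Signs turned for small differences. Rbpj on day 5 (reported 0.12) was -0.26 with at least 10 cells per sum and -0.052 in the stem and multipotent types, and ran from -0.089 to 0.51 without 1 library. Rbpj on day 7 (reported -0.04) was 0.32 with limma voom and 1.24 with limma on mean log2 values, and ran from -0.21 to 0.35 without 1 library. Rbpj in iMPP (reported 0.35) was -0.088 with at least 10 cells per sum. Notch1 on day 7 was 0.035 with limma on mean log2 values, and its share of cells was 9.38 points above iHSC as deposited and 1.28 points below at equal depth. As deposited, Notch2 in iMPP (22.8 points, adjusted permutation p = 0.0162) and Rbpj on day 7 (29 points, 0.0234) also passed, and Hes1 in iMPP did not (adjusted permutation p = 0.186). The cause was not tested. Of single genes called as reported, the Hes1 level on day 7 was lost with limma on mean log2 values (-1.48, adjusted p = 0.205), the Hes1 level in iMPP in 20 of 29 fits without 1 library, the day 5 Rbpj share without L66 (adjusted permutation p = 0.0543), and the fall of Jag1 from day 5 to day 7 in 9 of 17 repeats and as deposited.

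Counts over all genes under other settings moved by over 1.5 times: 23 to 1002 on day 1 (reported 419), 15 to 314 on day 3 (149), 564 to 4153 on day 5 (1011), 1592 to 4910 on day 7 (2784), 13 to 515 in day 7 against day 5 (54) and 1022 to 3896 in iMPP (1304). They were 308 to 2303 in committed (811), 618 to 2209 in T (938), 583 to 2669 in B (1210), 1142 to 2390 in myeloid (1565) and 1351 to 2990 in erythroid cells (1954), 20 to 870 in B against T (127) and 0 to 18 by organ label (0). Without 1 library of the groups compared, they ran from 229 (L87) to 638 (L84) on day 1, from 25 (L85) to 163 on day 3, from 7 (L68) to 93 (L63) in day 7 against day 5, and down to 389 (L15) in committed, 259 (L2) in T, 422 (L3) in B, 826 (L12) in myeloid and 1118 (L4) in erythroid cells and 31 (L54) in B against T. No paired analysis was possible because replicate numbers pair no samples across groups. That limit concerns replicate numbers alone, since libraries that held both iHSC and iMPP cells could be paired by library. Their Hes1 and Rbpj values are given above as a description, with no paired test. Where 1 library held several groups, the limma voom fit kept the library as a block. The edgeR fits and the permutation tests had no such block and took the sums of a shared library as separate. Differences inside a library were not tested for any comparison, day 7 against iHSC included. Precision is limited by 2 libraries of B and of T cells, by 3 on days 1 and 3 and of myeloid and erythroid cells, and by genes read in few cells per library.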

Other observations

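The 3 libraries that mixed 2 collection days were in no comparison. Library L77 (days 5 and 7, 38 cells) had Hes1 at 169 CPM and Jag1 at 5.02 CPM. Of the libraries of days 1 and 3, L80 (28 cells) had Hes1 at 87.7 and Jag1 at 9.80 CPM, and L88 (54 cells) had Hes1 at 57 and Jag1 at 14.8 CPM. Hey1 and Dll1 had no count in any of the 3.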
